A study of Mus musculus with 24 samples.

Results

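The genes described here are 10 of the 55335 genes measured in invariant natural killer T (iNKT) cells from mouse mesenteric lymph nodes. They are 3 amino acid transport genes (Slc7a5, Slc3a2 and Slc1a5), the branched-chain and asparagine enzymes Bcat1 and Asns, the serine synthesis enzymes Phgdh and Psat1, and the folate enzymes Shmt1, Shmt2 and Mthfd2. They were chosen by name with earlier results of these data known, on their levels after alpha-galactosylceramide (aGC) relative to PBS, Bcat1 as one of the genes with the strongest rise. Their aGC minus PBS changes are therefore given as a description, without a test.

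The iNKT cell is a T cell with a semi-invariant receptor for lipids held by CD1d, and aGC is a lipid antigen that it recognises. C57BL/6J mice whose dams had received fecal transplant (FT) from CD1d-knockout (KO FT) or wild-type (WT FT) donors were given 2 µg aGC in 200.0 µL PBS, or PBS alone, by mouth, and cells were sorted 24 h later. Male and female mice were kept apart, which made 8 groups: KO FT aGC male and female, WT FT aGC male and female, KO FT PBS male and female, and WT FT PBS male and female. Each group had 3 libraries, 24 in all. Nothing in the labels states that libraries within a group are separate mice, so every p-value reflects library-to-library spread alone, and that spread could be purely technical. Donor cannot be told apart from dam, litter or cage in this design, and neither the sort gate nor the age of the mice is given in the sources used here.

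An activated T cell that prepares to divide takes up large neutral amino acids and glutamine, makes serine from glucose, and uses serine to load folate with one-carbon units for nucleotides and methylation. Slc7a5 (LAT1) and Slc3a2 (CD98 heavy chain) pair at the membrane to carry leucine and other large amino acids, and Slc1a5 carries glutamine. Bcat1 transfers the amino group of branched-chain amino acids in the cytosol, Asns makes asparagine, Phgdh and Psat1 act in serine synthesis, Shmt1 (cytosol) and Shmt2 (mitochondria) take a carbon from serine, and Mthfd2 oxidises the mitochondrial folate product.

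Promoter windows, the stretch just before a transcript start in RefSeq (GRCm38.p6), were read for 8 of the 10 genes, in 10 windows, and not for Slc7a5 and Slc1a5. Each was searched on both strands for the CARE letters TGATGNAA, which ATF4 can bind, the E-box CACGTG, which MYC can bind, and the AP-1 letters TGANTCA. Only the Asns window held the CARE letters and only the first of the Bcat1 windows held the AP-1 letters, while none held the E-box. These matches are common, since 3.45%, 6.02% and 6.75% of all 32851 windows hold the CARE, E-box and AP-1 letters, in that order. Both windows are shown because these are the only matches among the 10 genes and because Bcat1 and Asns had the lowest levels after PBS. They lie on the minus strand, at chr6:7693210-7693459 for Asns and chr6:145076158-145076407 for Bcat1, and are written 5′ to 3′ with the match in capitals. The match ends 15 bases before the transcript start in Asns and 17 bases before it in Bcat1. A match of letters is a description and not a binding site.
Asns: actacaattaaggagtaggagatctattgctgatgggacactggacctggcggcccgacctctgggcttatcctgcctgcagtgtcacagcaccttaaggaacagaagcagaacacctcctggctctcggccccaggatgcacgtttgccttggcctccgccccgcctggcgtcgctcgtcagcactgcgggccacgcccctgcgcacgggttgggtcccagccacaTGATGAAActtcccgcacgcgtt
Bcat1: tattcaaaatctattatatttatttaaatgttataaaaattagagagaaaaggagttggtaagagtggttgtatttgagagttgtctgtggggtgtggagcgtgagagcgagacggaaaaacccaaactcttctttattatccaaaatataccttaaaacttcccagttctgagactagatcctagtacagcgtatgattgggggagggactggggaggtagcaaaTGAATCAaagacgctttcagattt

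Library totals ran between 9764931 and 37016768 estimated counts, so 3 counts, the limit that a count of 0 allows, equalled 0.080 to 0.302 CPM (counts scaled by library size with TMM factors), which covers counting error only. The iNKT receptor gene Trav11 was present in every library, at 325 to 505 CPM after aGC and 505 to 880.1 CPM after PBS. The summed level of 6 iNKT marker genes was 2206 to 2719 CPM after aGC, against 3128 to 4038 CPM after PBS. The set includes genes that other T cells also express, such as Cd3e and Cd3g, so the sum does not measure iNKT content. Of the 8 groups, 4 stood apart: the PBS males and the aGC females of both donors held 393 to 863 CPM of Cd8a plus Cd8b1, markers of conventional CD8 T cells, against 14.1 to 19.8 CPM in the PBS females and aGC males. Summed over Ccr7, S1pr1, Lef1 and Klf2, markers of naive and recirculating T cells, the same 4 groups held 882 to 1456 CPM, against 433 to 562 CPM in the other 4. The sex labels matched 4 Y-linked genes, Ddx3y, Eif2s3y, Kdm5d and Uty, which summed to 142 to 213 CPM in the 12 male libraries and 1.03 to 3.53 CPM in the 12 female libraries. Whether the sort or the handling differed between these groups was not tested. Within a treatment, sex and this marker content coincide and cannot be told apart, and within a sex they coincide with treatment. The results for the 10 genes are therefore also given within a sex or within the PBS females and aGC males alone, and the counts for other genes of the pathway within a sex. In bulk RNA, fewer cells of a type and less RNA per cell cannot be told apart. The summed level of 6 B cell markers moved with treatment, at 448 to 713 CPM after aGC and 967 to 1066 CPM after PBS. Nearly all of it was Ighm, at 442 to 695 CPM after aGC and 954 to 1051 CPM after PBS, while each of the other 5 (Ms4a1, Cd79a, Cd79b, Cr2 and Pax5) reached at most 16.0 CPM and Pax5 at most 1.29 CPM; their part in the results was not tested.

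All 10 genes were higher after aGC than after PBS in both donors and both sexes, 24 h after the dose. The log2 change of aGC minus PBS had a median over the 10 genes of 1.36 in KO FT and 1.80 in WT FT, where the median of all 15953 genes tested was -0.03 and -0.11. Over those genes, 28.1% were called higher and 30.1% lower after aGC in KO FT, and 30.9% higher and 37.5% lower in WT FT, at an adjusted p under 0.05. Since the genes were listed with their aGC response known, nothing is read from that contrast.

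**Figure D1:**
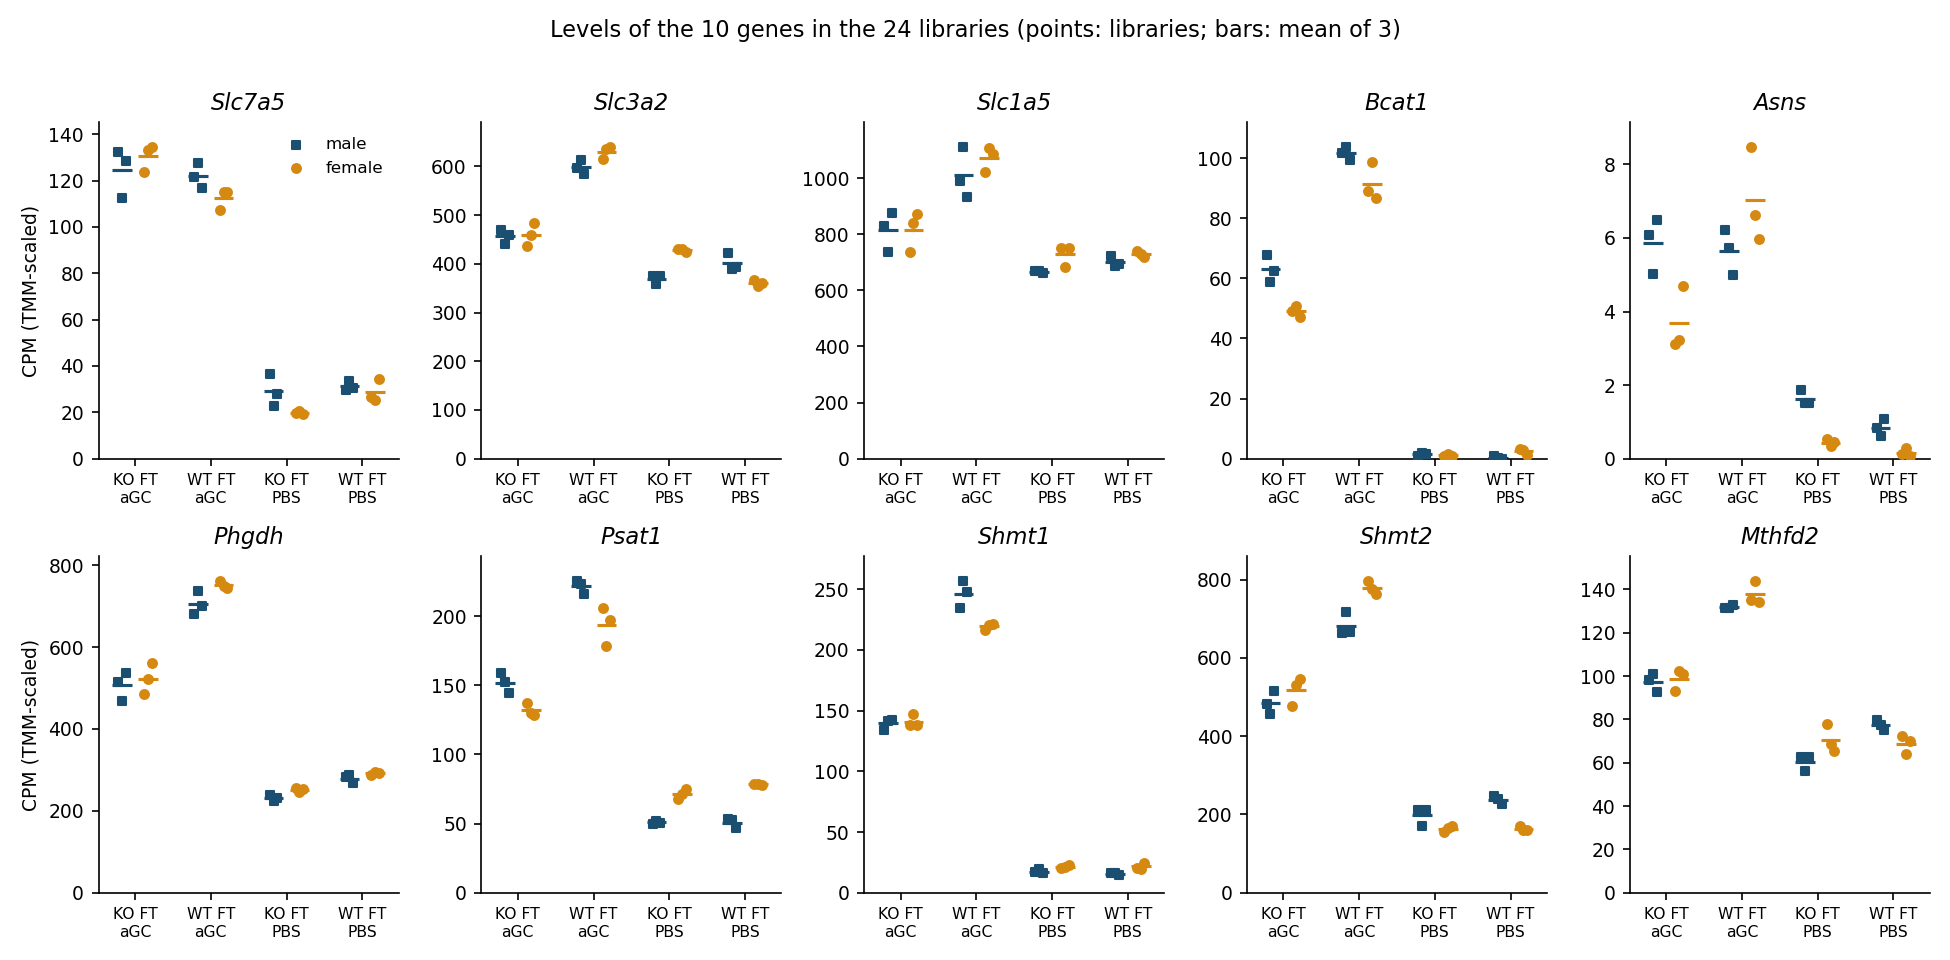
TMM-scaled CPM (linear axis starting at 0) of each of the 10 genes in all 24 libraries, with 1 point per library and a bar at the mean of the 3 libraries of a group; squares are males and circles are females. The aGC groups lie above the PBS groups in every panel except Slc1a5, where KO FT overlaps, and within aGC the KO FT points lie below the WT FT points for 8 genes but not for Slc7a5 or Asns. The share of all genes without overlap was not counted.

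Bcat1 showed the largest log2 change of the 10 genes over both sexes in each donor; within WT FT females Asns stood slightly above it, at 5.40 ± 0.34 beside 5.15 ± 0.22 for Bcat1. It had 67.8, 58.9 and 62.3 CPM in KO FT aGC males and 49.1, 50.9 and 47.2 CPM in KO FT aGC females, against 1.01, 1.79 and 1.69 CPM in KO FT PBS males and 0.999, 1.39 and 1.01 CPM in KO FT PBS females. In WT FT it had 102, 104 and 99.4 CPM in aGC males and 89.1, 98.5 and 86.7 CPM in aGC females, against 0.738, 0.166 and 0 CPM in PBS males and 3.07, 3.05 and 1.15 CPM in PBS females. The lowest aGC library stood well above the highest PBS library in each donor. The fitted log2 change was 5.39 ± 0.18 (approximate SE) in KO FT and 6.74 ± 0.19 in WT FT. The WT FT value rests on few reads, since the 3 WT FT PBS male libraries held 16, 3 and 0 Bcat1 counts, and the count of 0 allows up to 0.134 CPM. Leaving out 1 library at a time gave log2 values between 6.43 and 7.71 in WT FT and between 5.31 and 5.51 in KO FT.

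Asns was the lowest of the 10 genes after aGC. Asns had 6.09, 5.01 and 6.47 CPM in KO FT aGC males and 3.12, 3.22 and 4.69 CPM in KO FT aGC females, against 1.86, 1.52 and 1.51 CPM in KO FT PBS males and 0.526, 0.332 and 0.440 CPM in KO FT PBS females. Its WT FT levels were 6.21, 5.73 and 4.995 CPM in aGC males and 8.47, 6.64 and 5.98 CPM in aGC females, against 0.830, 0.610 and 1.07 CPM in PBS males and 0.133, 0.287 and 0.068 CPM in PBS females. The aGC and PBS libraries did not overlap, and PBS males were above PBS females in both donors. The WT FT PBS female libraries held 5, 5 and 1 Asns counts, so their level rests on few reads. Its log2 change was 2.46 ± 0.20 in KO FT and 4.07 ± 0.22 in WT FT. By sex it was 1.85 ± 0.26 in KO FT males and 3.06 ± 0.30 in KO FT females. For WT FT it was 2.73 ± 0.27 in males and 5.40 ± 0.34 in females.

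Of the transport genes, Slc7a5 had the largest change. Its lowest, median and highest levels were 112, 130.4 and 134 CPM in KO FT aGC and 107, 116 and 127 CPM in WT FT aGC, against 19.2, 21.5 and 36.5 CPM in KO FT PBS and 25.2, 30.1 and 34.4 CPM in WT FT PBS (6 libraries each). The log2 change was 2.42 ± 0.09 in KO FT and 1.97 ± 0.08 in WT FT. Its partner Slc3a2 had smaller values, 0.20 ± 0.03 in KO FT and 0.69 ± 0.03 in WT FT. Slc3a2 ran between 436 and 484 CPM in KO FT aGC and between 584 and 639.6 CPM in WT FT aGC, against 359 to 431 CPM in KO FT PBS and 355 to 422 CPM in WT FT PBS. The glutamine carrier Slc1a5 had a log2 change of 0.23 ± 0.05 in KO FT and 0.54 ± 0.05 in WT FT. Slc1a5 in KO FT females was the exception to the separation of aGC and PBS, with 738, 841 and 870.4 CPM after aGC and 751, 683 and 749.9 CPM after PBS.

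The serine synthesis genes Phgdh and Psat1 were about 2- to 3-fold higher after aGC. Phgdh had a lowest, median and highest level of 469, 518 and 562 CPM in KO FT aGC and 681, 741 and 760.4 CPM in WT FT aGC, against 224, 243 and 256 CPM in KO FT PBS and 268, 287 and 294 CPM in WT FT PBS. Psat1 ran between 129 and 159 CPM in KO FT aGC and between 178 and 225 CPM in WT FT aGC, against 49.7 to 75.3 CPM in KO FT PBS and 46.7 to 78.9 CPM in WT FT PBS. The ranges of aGC and PBS did not touch for either gene. The log2 change of Phgdh was 1.09 ± 0.04 in KO FT and 1.35 ± 0.04 in WT FT, and that of Psat1 was 1.23 ± 0.04 in KO FT and 1.71 ± 0.04 in WT FT.

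Among the folate enzymes, the cytosolic Shmt1 had by far the largest log2 change. Shmt1 had 134, 142 and 143 CPM in KO FT aGC males and 138, 147 and 138 CPM in KO FT aGC females, against 17.0, 19.5 and 15.9 CPM in KO FT PBS males and 20.1, 21.0 and 22.7 CPM in KO FT PBS females. In WT FT its levels were 235, 256 and 247 CPM in aGC males and 217, 221 and 221 CPM in aGC females, against 16.0, 16.2 and 14.8 CPM in PBS males and 20.7, 19.8 and 24.8 CPM in PBS females. Its libraries formed tight groups, and the log2 change was 2.85 ± 0.06 in KO FT and 3.66 ± 0.06 in WT FT. The mitochondrial Shmt2 ran between 456 and 547 CPM in KO FT aGC and between 662 and 796 CPM in WT FT aGC, against 155 to 213 CPM in KO FT PBS and 159.9 to 247 CPM in WT FT PBS. Mthfd2, which acts after Shmt2 in the mitochondrion, ran between 92.7 and 102 CPM in KO FT aGC and between 131 and 144 CPM in WT FT aGC, against 56.1 to 77.9 CPM in KO FT PBS and 64.1 to 79.9 CPM in WT FT PBS. The log2 changes were 1.48 ± 0.05 in KO FT and 1.88 ± 0.05 in WT FT for Shmt2, and 0.59 ± 0.05 in KO FT and 0.88 ± 0.05 in WT FT for Mthfd2.

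**Figure D2:**
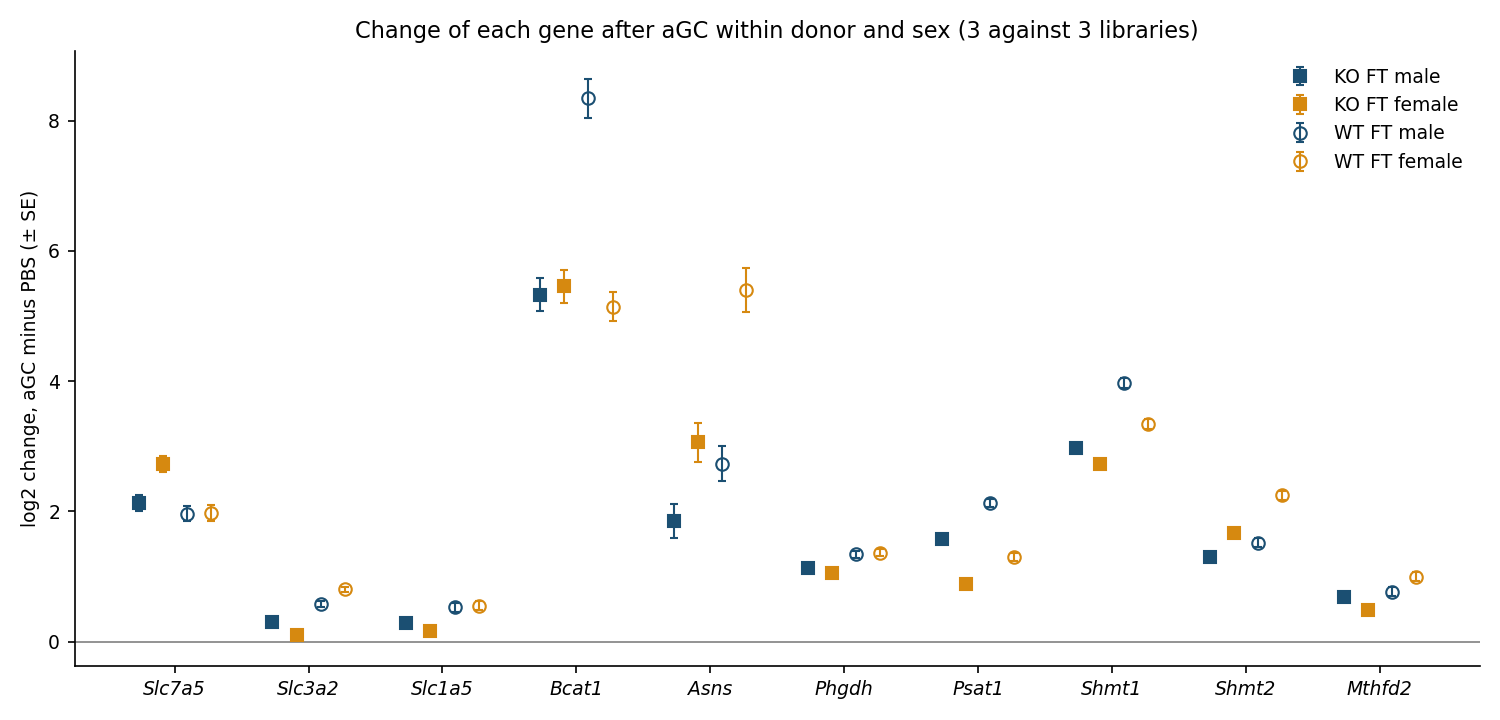
Fitted log2 change of aGC minus PBS (± approximate SE) of each gene within the 4 combinations of donor and sex, 3 libraries against 3. Filled squares are KO FT, open circles WT FT, blue males and orange females. Every value lies above 0; the highest is Bcat1 in WT FT males, at 8.34, whose PBS libraries held few counts, and Slc3a2 in KO FT females lowest, at 0.10.

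The log2 change differed between males and females for some of these genes and hardly for others, which is described here without a test. For Psat1 it was 1.58 ± 0.06 in KO FT males and 0.89 ± 0.06 in KO FT females, and 2.12 ± 0.06 in WT FT males and 1.30 ± 0.06 in WT FT females. Shmt2 ran the other way in both donors, at 1.30 in KO FT males against 1.67 in KO FT females, and 1.52 in WT FT males against 2.25 in WT FT females. The widest gaps were in WT FT, for Bcat1 (8.34 in males and 5.15 in females) and Asns (2.73 and 5.40), both with few PBS counts. For KO FT the values were 5.33 and 5.45 for Bcat1 and 1.85 and 3.06 for Asns. In WT FT the sexes lay close for Slc7a5 (1.97 in males and 1.98 in females), Phgdh (1.34 and 1.37) and Slc1a5 (0.53 and 0.55). Among males the PBS libraries were the ones high in CD8 markers, and among females the aGC libraries; the part of this content in the values was not tested. In the comparison of aGC males with PBS females, the groups low in CD8 markers, all 10 genes were still higher after aGC. Treatment and sex coincide in this comparison and cannot be told apart. There the log2 change of Bcat1 was 5.82 ± 0.26 in KO FT and 5.30 ± 0.22 in WT FT, that of Shmt1 was 2.71 in KO FT and 3.51 in WT FT, and that of Slc3a2 was 0.09 in KO FT and 0.73 in WT FT.

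Per kilobase of exon, which allows levels to be set roughly between genes, Slc1a5 was the highest of the 10 after PBS in all 4 groups, at 160 to 175 CPM per kb. The length was that of all annotated exons of a gene joined. It was not that of the transcripts expressed, so the order depends on the annotation. Phgdh was highest after aGC, at 204 and 210.4 CPM per kb in KO FT males and females and at 284 and 302 CPM per kb in WT FT males and females. Slc1a5 followed at 195 to 257 CPM per kb and Shmt2 at 156 to 250.2 CPM per kb. Asns and Bcat1 filled the last places in every group: Bcat1 reached 5.26 to 10.9 CPM per kb after aGC, against 0.032 to 0.260 CPM per kb after PBS. Slc3a2 and Phgdh changed places between PBS groups, and Shmt1, Psat1, Slc7a5 and Mthfd2 lay close to each other after aGC in KO FT, between 27.9 and 36.3 CPM per kb.

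Other genes of amino acid and one-carbon metabolism moved in both directions after aGC. Of 167 such genes in 9 lists, 150 could be tested. In KO FT 74 passed as higher, 37 as lower and 39 did not pass, and in WT FT 73 passed as higher, 44 as lower and 33 did not. The median log2 change over these 150 genes was 0.21 in KO FT and 0.25 in WT FT, beside -0.03 and -0.11 over all genes. Within a sex the counts were 67 higher and 37 lower in KO FT males (26.8% and 26.7% of all genes), 70 and 34 in KO FT females (27.7% and 28.3%), 72 and 47 in WT FT males (31.7% and 34.9%) and 74 and 36 in WT FT females (28.6% and 29.8%). With the libraries of each group summed to 1 profile, 12 of the 150 genes were higher and 0 lower in KO FT, where 331 of all 15953 genes passed, and 34 were higher and 4 lower in WT FT, where 1618 passed; 6 and 16 of those higher were tRNA synthetases. These lists, too, were drawn up with earlier results of these data known. Each list count that follows stands beside 28.1% of all genes higher and 30.1% lower in KO FT, and 30.9% higher and 37.5% lower in WT FT.

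The cytosolic aminoacyl-tRNA synthetases, which load amino acids onto tRNA, were the list with the most uniform direction. In both donors 19 of 20 rose and none fell, with a median log2 change of 0.75 in KO FT and 1.00 in WT FT. Within a sex 18 rose in KO FT males, 19 in KO FT females, 20 in WT FT males and 18 in WT FT females, where 1, Vars, fell. For example, Mars (methionine) averaged 258 CPM in KO FT aGC males and 276 CPM in KO FT aGC females, against 124 and 134 CPM in the PBS males and females of that donor (log2 change 1.05 ± 0.04, edgeR adjusted p = 8.01e-17). In WT FT the log2 change of Mars was 1.32 ± 0.04 (edgeR adjusted p = 4.47e-19). The exceptions were Qars in KO FT, at 0.04 ± 0.09 (edgeR adjusted p = 0.736), and Vars in WT FT, at 0.05 ± 0.05 (edgeR adjusted p = 0.336), which was at 0.29 ± 0.07 in WT FT males and -0.18 ± 0.07 in WT FT females and passed in each (edgeR adjusted p = 5.68e-04 and 0.021).

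Among other folate genes, 11 of 16 rose and 2 fell in KO FT, and 8 rose and 4 fell in WT FT. Within KO FT 10 rose and 2 fell in males, and 9 and 2 in females. Within WT FT 9 rose and 2 fell in males, and 7 and 5 in females. Slc19a1, the reduced folate carrier, rose by 1.85 ± 0.06 on the log2 scale in KO FT and by 2.06 ± 0.06 in WT FT. Mthfd1 and Mthfd1l, which interconvert folate one-carbon units in the cytosol and the mitochondrion, rose by 1.42 and 1.02 in KO FT and by 1.58 and 1.36 in WT FT (edgeR adjusted p at most 3.17e-16 for these 6 values). Of 5 other serine and glycine genes, 4 rose in each donor: Gcsh, of the glycine cleavage system, by 1.55 in KO FT and 2.00 in WT FT, and Sfxn1, a mitochondrial serine carrier, by 0.44 in KO FT and 1.09 in WT FT. Srr, which makes D-serine, fell in WT FT by 1.78 ± 0.13 and was at 0.16 ± 0.12 in KO FT (edgeR adjusted p = 0.290).

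In the methionine cycle and salvage, 6 of 13 genes rose and 3 fell in KO FT, and 9 rose and 2 fell in WT FT. Males had 6 higher and 3 lower in KO FT and 7 and 2 in WT FT. Females had 6 and 3 in KO FT and 8 and 3 in WT FT. Mat2a, which makes S-adenosylmethionine, rose by 0.98 in KO FT and 0.90 in WT FT, and Amd1, which draws it into polyamine synthesis, by 1.49 in KO FT and 1.41 in WT FT. The list of glutamine, aspartate, proline and arginine genes had 13 of 20 higher and 5 lower in KO FT and 14 higher and 4 lower in WT FT. The lowest p-values in it belonged to polyamine enzymes: Srm rose by 1.76 ± 0.04 in KO FT and 2.43 ± 0.04 in WT FT, and Odc1 by 2.01 ± 0.04 in KO FT and 2.08 ± 0.04 in WT FT. By sex, this list had 8 higher and 4 lower in KO FT males and 12 and 4 in KO FT females. For WT FT it had 12 and 5 in males and 13 and 2 in females.

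Of 18 genes of branched-chain amino acid breakdown, 2 rose, 9 fell and 7 did not pass in KO FT, beside 28.1% of all genes higher and 30.1% lower. In WT FT 3 rose, 10 fell and 5 did not pass, beside 30.9% and 37.5%. In WT FT females the list was even, with 4 higher and 5 lower, against 3 and 10 in WT FT males. Aldh6a1, of valine breakdown, fell by 1.05 ± 0.09 in KO FT and by 0.98 ± 0.09 in WT FT, and Acad8 by 0.48 in KO FT and 0.51 in WT FT. Within KO FT the log2 change of Aldh6a1 was -1.58 ± 0.13 in males and -0.52 ± 0.13 in females. Bcat2, the mitochondrial counterpart of Bcat1, averaged 96.3 CPM in WT FT aGC males and 117 CPM in WT FT aGC females, against 114 and 99.8 CPM in the PBS males and females, a log2 difference of -0.01 ± 0.05 (edgeR adjusted p = 0.893). It was at -0.24 ± 0.07 in the males and 0.22 ± 0.07 in the females, past the threshold in each (edgeR adjusted p = 0.00372 and 0.0075).

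Genes of amino acid stress and sensing were mixed. In the stress list 5 of 14 rose and 6 fell in KO FT, and 5 rose and 5 fell in WT FT. In KO FT alone that list had 4 higher and 5 lower in males and 8 higher and 4 lower in females. Atf4, the transcription factor of the amino acid response, rose by 0.46 ± 0.04 in KO FT and 0.92 ± 0.04 in WT FT, and within KO FT by 0.18 ± 0.05 in males and 0.74 ± 0.05 in females. Atf3 rose by 3.71 ± 0.31 in KO FT and 5.52 ± 0.37 in WT FT, with group means of at most 9.07 CPM, while Ddit4 fell by 0.43 ± 0.10 in KO FT (edgeR adjusted p = 9.80e-04) and by 1.55 ± 0.11 in WT FT. Within KO FT the values of Ddit4 had opposite signs, at -1.23 ± 0.14 in males and 0.38 ± 0.15 in females (edgeR adjusted p = 1.03e-07 and 0.034). Of 21 genes of amino acid sensing by mTORC1, 5 rose and 8 fell in KO FT, beside 28.1% and 30.1% of all genes, and 5 rose and 10 fell in WT FT, beside 30.9% and 37.5%. By sex, 7 rose and 7 fell in KO FT males, and 4 and 10 in KO FT females. For WT FT the counts were 7 and 12 in males and 5 and 7 in females. Castor1, an arginine sensor, fell by 0.89 ± 0.07 in KO FT and 1.03 ± 0.07 in WT FT, where it was at -1.76 ± 0.10 in males and -0.29 ± 0.10 in females. Other amino acid carriers split into 9 higher and 4 lower of 23 in KO FT and 6 higher and 8 lower in WT FT. Within KO FT they had 7 higher and 7 lower in males and 9 and 3 in females. Within WT FT they had 5 higher and 9 lower in males and 11 and 8 in females. Slc7a1, a carrier of basic amino acids, rose by 1.15 ± 0.10 in KO FT and 1.34 ± 0.10 in WT FT, with higher values in females than in males, a difference that was not tested. It averaged 24.0 CPM in KO FT aGC males and 30.5 CPM in KO FT aGC females, against 18.5 and 8.11 CPM in the PBS males and females, a log2 change of 0.38 ± 0.14 in males and 1.91 ± 0.15 in females. In WT FT it averaged 22.4 CPM in aGC males and 40.9 CPM in aGC females, against 17.9 and 7.92 CPM in the PBS males and females, a log2 change of 0.32 ± 0.14 in males and 2.36 ± 0.15 in females. Slc38a9, a lysosomal arginine sensor, fell by 0.79 ± 0.12 in KO FT (edgeR adjusted p = 4.39e-06) and by 1.37 ± 0.12 in WT FT; with aGC males and PBS females alone it was at -0.39 ± 0.16 in KO FT and did not pass (edgeR adjusted p = 0.052).

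**Figure D3:**
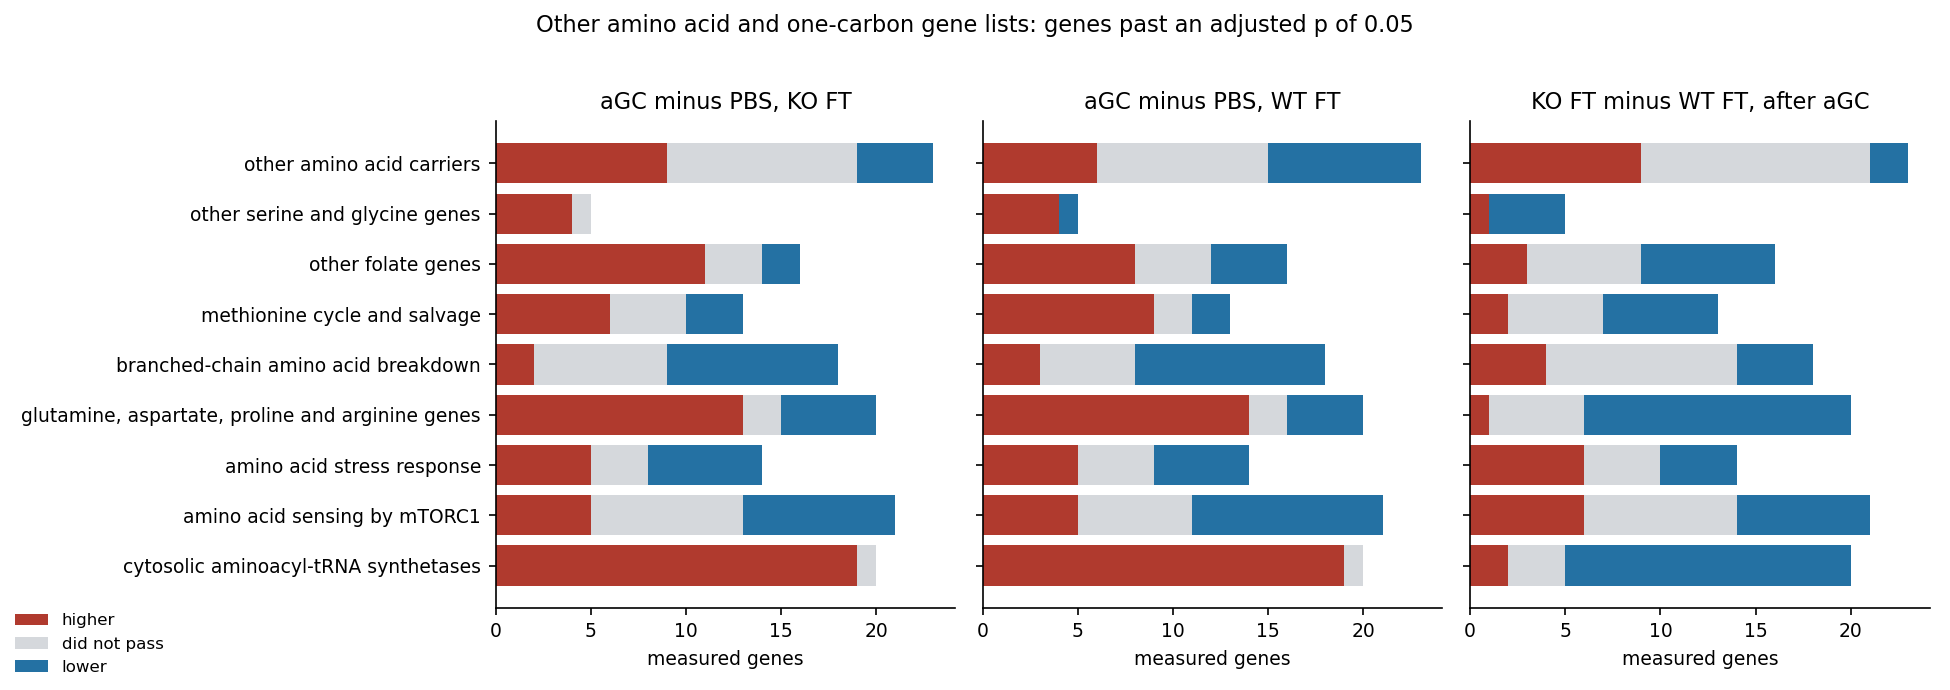
Number of measured genes in each of 9 further lists that were higher (red), lower (blue) or did not pass an adjusted p of 0.05 (grey) in edgeR, for aGC minus PBS in KO FT and WT FT and for KO FT minus WT FT after aGC. The tRNA synthetases are red in 19 of 20 genes after aGC in each donor, and blue in 15 of 20 in the donor comparison.

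After aGC, 9 of the 10 genes were lower in KO FT than in WT FT, and the tenth, Slc7a5, did not pass the test. Because the genes were listed with their aGC response known, and aGC libraries enter this comparison, its p-values are no independent support. Among all genes, 25.4% were called higher and 26.5% lower in this comparison. The median log2 change of the 10 genes was -0.48, beside 0.00 over all genes. KO FT and WT FT libraries did not overlap for 8 of the 10 genes, the exceptions being Slc7a5 and Asns. The share of all genes without such overlap was not counted, so this describes the 10 genes only.

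Bcat1 and Shmt1 had the largest differences over both sexes, within an SE of each other, while in males alone Shmt1 (-0.82 ± 0.07) lay beyond Bcat1 (-0.69 ± 0.17). The lowest, median and highest levels of Bcat1 after aGC were 47.2, 54.9 and 67.8 CPM in KO FT and 86.7, 99.0 and 104 CPM in WT FT (6 libraries each), with no overlap. It was 1.73-fold lower in KO FT, at -0.79 ± 0.12 on the log2 scale (edgeR adjusted p = 6.90e-06). Shmt1 had 134, 139.7 and 147 CPM in KO FT against 217, 228 and 256 CPM in WT FT, a log2 difference of -0.73 ± 0.05 (edgeR adjusted p = 3.57e-11). The highest KO FT library of Shmt1 was below the lowest WT FT library.

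The serine and mitochondrial folate genes formed a narrow band. Psat1, Shmt2, Phgdh and Mthfd2 had log2 changes of -0.55 ± 0.04, -0.54 ± 0.05, -0.50 ± 0.04 and -0.46 ± 0.05 in KO FT relative to WT FT, with edgeR adjusted p-values of at most 2.33e-08. The carriers Slc3a2 and Slc1a5 were at -0.42 ± 0.03 and -0.35 ± 0.05 (edgeR adjusted p = 9.85e-11 and 1.10e-06). Slc7a5, which pairs with Slc3a2, had 112, 130.4 and 134 CPM in KO FT against 107, 116 and 127 CPM in WT FT. These overlapped, and the log2 change was 0.12 ± 0.08 (edgeR adjusted p = 0.199). Without TMM scaling, by library totals alone, it was 0.25 (edgeR adjusted p = 0.00954) and passed as higher.

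The call for Asns held in fewer settings. It had 3.12, 4.85 and 6.47 CPM in KO FT against 4.995, 6.09 and 8.47 CPM in WT FT, a log2 difference of -0.43 ± 0.17 (edgeR adjusted p = 0.036). The ranges overlapped. Males were at 0.06 ± 0.24 (edgeR adjusted p = 0.871), while in females it was lower in KO FT, at -0.92 ± 0.24 on the log2 scale (edgeR adjusted p = 0.00367), and the sexes differed by 0.98 ± 0.34 in this effect (edgeR adjusted p = 0.032). Leaving out any of 9 single libraries, each of the WT FT aGC libraries, the first or second KO FT aGC female library or the second KO FT aGC male library, took its edgeR adjusted p to between 0.0503 and 0.106. It did not pass by library totals alone (-0.31, edgeR adjusted p = 0.132) or without a filter on low counts (-0.40, edgeR adjusted p = 0.227).

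The other 8 genes that differed passed as lower in each sex, beside 22.4% of all genes in males and 24.4% in females. In males, the aGC group low in CD8 markers in both donors, their log2 changes ran from -0.31 (Slc1a5) to -0.82 (Shmt1), and in females from -0.39 (Slc1a5) to -0.90 (Bcat1). In aGC males Cd8a plus Cd8b1 summed to 14.1 to 14.5 CPM in KO FT and 17.3 to 19.8 CPM in WT FT. Macrophage and monocyte markers were at 28.1 to 32.3 CPM in KO FT and 17.3 to 19.7 CPM in WT FT in these males. The iNKT marker sum, which includes genes of other T cells, was at 2386 to 2719 CPM in KO FT and 2231 to 2402 CPM in WT FT. The part of these markers in the result was not tested. For aGC females, CD8 markers were at 494 to 523 CPM in KO FT and 631 to 639.8 CPM in WT FT.

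**Figure D4:**
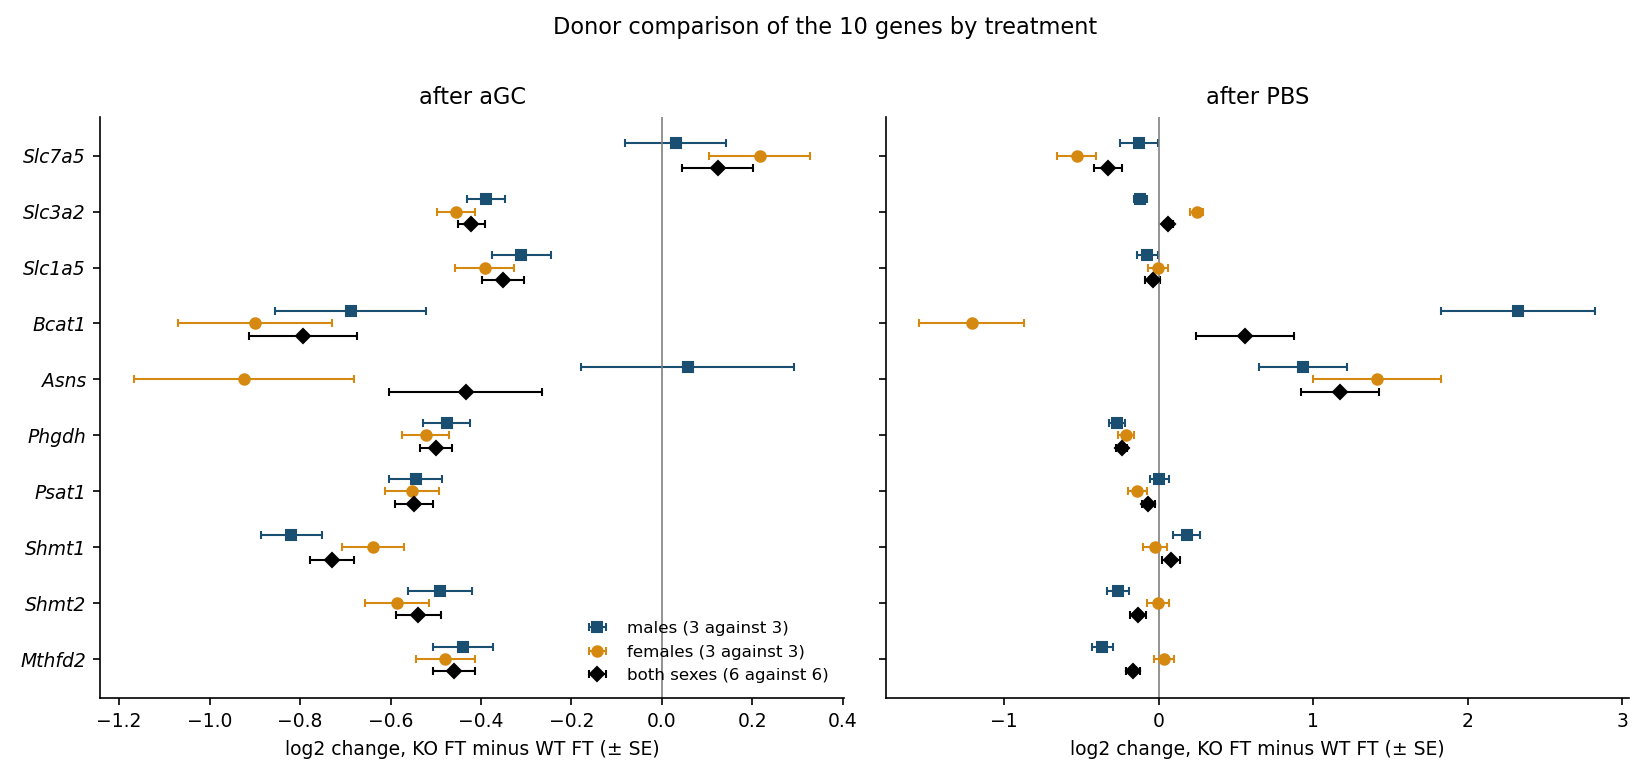
Fitted log2 change of KO FT minus WT FT (± approximate SE) for each gene after aGC and after PBS. Squares are males (3 libraries against 3), circles are females (3 against 3) and diamonds are both sexes (6 against 6). After aGC, 8 genes lie below 0 in both sexes, while after PBS most lie near 0 and Bcat1 points in opposite directions in the sexes; the horizontal scales differ between panels.

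These p-values treat the 3 libraries of a group as independent. When they were summed to 1 profile per group, with 3 residual degrees of freedom, none of the 10 genes passed in the donor comparison after aGC (edgeR adjusted p = 0.598 to 0.864). No gene of 15953 passed there, while 1306 had an unadjusted p under 0.05, among them Shmt1, Phgdh, Slc3a2, Slc1a5, Shmt2 and Mthfd2 (unadjusted p = 0.00623 to 0.029). That fit held donor, treatment, their interaction and sex, but no term for sex by treatment. The CD8 marker pattern of the groups therefore falls into its error term, and its part in the lost calls was not tested. The genes were also listed with the WT FT aGC levels known, and those libraries enter this comparison. By library totals alone the median of all genes moved up by 0.13 on the log2 scale, the calls split into 5431 higher and 2836 lower against 4049 and 4229 with TMM, and 8 of the 10 genes were called lower.

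Of the 150 other genes of the pathway, 34 were higher, 63 lower and 53 did not pass in KO FT relative to WT FT after aGC, beside 25.4% of all genes higher and 26.5% lower. Within a sex 33 were higher and 57 lower in males (24.2% and 22.4% of all genes), and 27 higher and 57 lower in females (19.0% and 24.4%). With 1 profile per group no gene passed in this comparison, so none of these calls was kept. The tRNA synthetases had 2 higher and 15 lower of 20, the glutamine, aspartate, proline and arginine genes 1 higher and 14 lower of 20, and the other serine and glycine genes 1 higher and 4 lower of 5. Folate genes had 3 higher and 7 lower of 16, and methionine genes 2 higher and 6 lower of 13. The other amino acid carriers ran the other way, with 9 higher and 2 lower of 23. Branched-chain breakdown was even over both sexes, at 4 higher and 4 lower of 18, and at 2 and 8 in females, while mTORC1 sensing had 6 higher and 7 lower of 21 and the stress list 6 and 4 of 14.

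After PBS, 5 of the 10 genes passed between the donors. Asns was higher in KO FT, and Slc7a5, Phgdh, Shmt2 and Mthfd2 were lower, while the other 5 did not pass. Over all genes 14.6% were called higher and 14.8% lower. The median log2 change was -0.05 over the 10 genes and 0.00 over all genes.

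Phgdh was the only one of the 10 whose KO FT and WT FT libraries did not overlap after PBS, and over all genes this was not counted. Its lowest, median and highest levels were 224, 243 and 256 CPM in KO FT against 268, 287 and 294 CPM in WT FT, a log2 difference of -0.24 ± 0.04 (edgeR adjusted p = 4.40e-05). It was lower in KO FT in males, by 0.27 ± 0.05, and in females, by 0.21 ± 0.05, on the log2 scale. Asns had 0.332, 1.02 and 1.86 CPM in KO FT against 0.068, 0.448 and 1.07 CPM in WT FT, a log2 difference of 1.18 ± 0.25 (edgeR adjusted p = 0.00117). It was higher in KO FT within each sex, by 0.94 in males and 1.41 in females, at levels of few counts.

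Slc7a5 was at -0.33 ± 0.09 (edgeR adjusted p = 0.00729), with 19.2, 21.5 and 36.5 CPM in KO FT against 25.2, 30.1 and 34.4 CPM in WT FT. It was at -0.13 ± 0.12 in males, which did not pass, and at -0.53 ± 0.13 in females, which did; the difference between the sexes did not pass (edgeR adjusted p = 0.069). Mthfd2 was at -0.17 ± 0.05 (edgeR adjusted p = 0.011) and Shmt2 at -0.14 ± 0.05 (edgeR adjusted p = 0.049). In males Mthfd2 was at -0.36 ± 0.07 and Shmt2 at -0.27 ± 0.07, and in females at 0.03 ± 0.07 and -0.01 ± 0.07, and the sexes differed for both genes (edgeR adjusted p = 0.00162 and 0.043). The call for Shmt2 was lost without any of 12 single libraries (edgeR adjusted p up to 0.148): 3 KO FT PBS libraries (first and second female, second male), 5 WT FT PBS libraries (all females, first and second male) and 4 aGC libraries, and its change fell to -0.09 without the second KO FT PBS male library.

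Bcat1 pointed in opposite directions after PBS. In males it was higher in KO FT, by 2.33 ± 0.50 on the log2 scale (edgeR adjusted p = 6.83e-04), with 1.01, 1.79 and 1.69 CPM in KO FT against 0.738, 0.166 and 0 CPM in WT FT. In females it was lower in KO FT, at -1.21 ± 0.34 (edgeR adjusted p = 0.00937), with 0.999, 1.39 and 1.01 CPM in KO FT against 3.07, 3.05 and 1.15 CPM in WT FT. The difference between sexes was 3.54 ± 0.60 (edgeR adjusted p = 6.45e-05), while over both sexes Bcat1 did not pass (0.56 ± 0.32, edgeR adjusted p = 0.198). Without the first WT FT PBS male library, which held most of the Bcat1 counts of its group, that value was 1.53 (edgeR adjusted p = 0.0063), and with DESeq2 it was 0.57 (adjusted p = 0.038). Cd8a plus Cd8b1 were at 393 to 396 CPM in KO FT PBS males against 854 to 863 CPM in WT FT PBS males, and at 15.9 to 16.7 CPM in KO FT PBS females against 15.7 to 16.9 CPM in WT FT PBS females; their part was not tested.

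Slc3a2 also differed between the sexes after PBS, at -0.12 ± 0.04 in males and 0.25 ± 0.04 in females, and over both sexes it did not pass (0.06 ± 0.03, edgeR adjusted p = 0.114). Slc1a5, Psat1 and Shmt1 lay between -0.07 and 0.08 and did not pass. With 1 profile per group, none of the 10 genes passed after PBS (edgeR adjusted p of 1 for each), and no gene of 15953 did, with 255 at an unadjusted p under 0.05.

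The donor difference in the aGC response itself, the log2 change of aGC minus PBS in KO FT minus that in WT FT, was below 0 for 9 of the 10 genes and above 0 for Slc7a5, all past the threshold. The genes were listed with their aGC response known and the same libraries enter this difference, so its p-values are no independent support. Of all genes 21.9% were called higher and 22.6% lower in this comparison. Asns had -1.61 ± 0.30, Bcat1 -1.35 ± 0.34 and Shmt1 -0.81 ± 0.08. Slc3a2, Psat1 and Shmt2 followed at -0.49 ± 0.04, -0.48 ± 0.06 and -0.40 ± 0.07, and Slc1a5, Mthfd2 and Phgdh at -0.31 ± 0.07, -0.29 ± 0.07 and -0.26 ± 0.05. Slc7a5 was at 0.45 ± 0.12 (edgeR adjusted p = 0.00339).

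For Shmt1 the response was smaller in KO FT in each sex, by 1.00 ± 0.11 on the log2 scale in males and 0.62 ± 0.11 in females (edgeR adjusted p = 3.13e-07 and 5.43e-05). Psat1, Slc3a2, Slc1a5 and Phgdh likewise passed in each sex (over all genes this was not counted). Bcat1 did not: it was at -3.02 ± 0.52 in males (edgeR adjusted p = 8.55e-05), where the WT FT PBS libraries held few counts, and at 0.31 ± 0.38 in females (edgeR adjusted p = 0.546). With aGC males and PBS females alone Bcat1 was at 0.52 ± 0.38 (edgeR adjusted p = 0.286). Over both sexes, leaving out the first WT FT PBS male library moved it to -2.32. Asns was at -0.88 ± 0.37 in males, which did not pass (edgeR adjusted p = 0.063), and at -2.34 ± 0.48 in females, which did. Shmt2 at -0.23 ± 0.10 and Mthfd2 at -0.08 ± 0.09 in males did not pass (edgeR adjusted p = 0.080 and 0.561), nor did Slc7a5 in males, at 0.16 ± 0.17 (edgeR adjusted p = 0.491), while it passed in females, at 0.75 ± 0.17. By 1 profile per group none of the 10 genes passed (edgeR adjusted p = 0.935 to 0.964), nor did any gene of 15953, with 628 at an unadjusted p under 0.05. By library totals alone the split of calls over all genes moved to 4637 higher and 2595 lower, against 3492 and 3601 with TMM.

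Between the sexes 7 of the 10 genes passed after PBS. There Slc7a5, Asns and Shmt2 were higher in males and Bcat1, Phgdh, Psat1 and Shmt1 were lower, beside 25.1% of all genes higher and 26.8% lower. The CD8 T cell markers are also higher in PBS males than in PBS females, and sex and these markers cannot be told apart here.

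Asns had 0.610, 1.29 and 1.86 CPM (lowest, median and highest) in PBS males and 0.068, 0.310 and 0.526 CPM in PBS females, with no overlap, a log2 difference of 2.11 ± 0.24 (edgeR adjusted p = 2.10e-07). Psat1 had 46.7, 51.4 and 53.1 CPM in PBS males and 67.4, 76.6 and 78.9 CPM in PBS females, again with no overlap (log2 change -0.56 ± 0.04, edgeR adjusted p = 4.25e-10). Shmt1 was separated as well, at 14.8 to 19.5 CPM in males and 19.8 to 24.8 CPM in females (-0.36 ± 0.06). Those 3 genes were the ones whose sexes did not overlap, and the share of all genes without overlap was not counted. Shmt2 was higher in males by 0.40 ± 0.05 and Slc7a5 by 0.33 ± 0.09; within a donor Slc7a5 was at 0.53 ± 0.13 in KO FT and at 0.13 ± 0.12 in WT FT, where it did not pass (edgeR adjusted p = 0.414). Mthfd2 passed in opposite directions, at -0.23 ± 0.07 in KO FT and 0.17 ± 0.07 in WT FT (edgeR adjusted p = 0.00731 and 0.039). Bcat1 was at -1.28 ± 0.31, and at -2.25 without the first WT FT PBS male library. Within a donor it was at 0.49 ± 0.39 in KO FT (edgeR adjusted p = 0.314) and -3.05 ± 0.44 in WT FT. Slc3a2 was lower in KO FT males, at -0.21, and higher in WT FT males, by 0.15, than in females of the same donor. Slc1a5 was at -0.09 ± 0.05 (edgeR adjusted p = 0.099), and it passed as lower in males without WT FT aGC library 2 or 3 of either sex (-0.12) or without a filter on low counts (-0.16). Phgdh was at -0.09 ± 0.04 (edgeR adjusted p = 0.036), a call lost without any of 7 single libraries (KO FT PBS female 1 or 3, KO FT PBS male 2 or 3, WT FT PBS female 2 or 3, or WT FT PBS male 3; edgeR adjusted p up to 0.113) and by library totals alone (-0.04).

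After aGC, Psat1 was higher in males by 0.20 ± 0.04 (edgeR adjusted p = 5.42e-04) and Shmt2 was at -0.14 ± 0.05 (edgeR adjusted p = 0.025), beside 20.8% of all genes higher and 20.0% lower. The call for Shmt2 was lost without any of 7 single libraries (KO FT aGC female 2 or 3, KO FT aGC male 2, WT FT aGC female 1 or 2, or WT FT aGC male 1 or 3; edgeR adjusted p up to 0.075). The other 8 (Slc7a5, Slc3a2, Slc1a5, Bcat1, Asns, Phgdh, Shmt1 and Mthfd2) did not pass over both donors, and the libraries of the sexes overlapped for all 10. By donor, Asns passed as higher in males in KO FT (0.66 ± 0.24, edgeR adjusted p = 0.0498) and not in WT FT (-0.32 ± 0.24). Shmt2 passed in WT FT (-0.19 ± 0.07, edgeR adjusted p = 0.031) and not in KO FT (-0.09 ± 0.07), while Psat1 passed in both. Bcat1 had 58.9, 83.6 and 104 CPM in aGC males and 47.2, 68.8 and 98.5 CPM in aGC females (0.26 ± 0.12, edgeR adjusted p = 0.091); it passed with DESeq2 (adjusted p = 0.00107), without a filter on low counts, and without WT FT PBS male library 1 or 3 (edgeR adjusted p = 0.037 and 0.044). Phgdh passed as lower without the first KO FT aGC female library (-0.09, edgeR adjusted p = 0.038). With 1 profile per group none of the 10 passed for sex, after PBS (edgeR adjusted p = 0.339 to 0.958) or after aGC (0.964 to 0.996).

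The genes whose group means followed Bcat1 most closely were Hells, Mgll, Dnph1, Cdca7 and Il2ra, with Pearson r of 0.996, 0.995, 0.994, 0.993 and 0.992 over the 8 group means of log2 CPM, among 10517 genes ranked. Il2ra, the high-affinity chain of the interleukin-2 receptor, ran from 48.4 to 204 CPM over the groups, and Cdca7 from 16.6 to 309 CPM. The 8 means fall into an aGC and a PBS cluster, and both genes of each pair are read from the same libraries. The gene most like Phgdh was Mars (r = 0.997), the methionyl-tRNA synthetase described above. Slc7a5 was most like Nr4a1 (0.996), Slc3a2 like Gtf2f1 (0.993), Slc1a5 like Uqcrc1 (0.994), Asns like Gga2 (0.987), Psat1 like Cenps (0.995), Shmt1 like Fubp1 (0.997), Shmt2 like Tubb5 (0.996) and Mthfd2 like Fastkd3 (0.994).

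A few positions bear on how reads were assigned. In GRCm38, Bcat1 lies at chr6:144993835-145076184 on the minus strand and Asns at chr6:7675169-7693254 on the same strand, both protein-coding. Shmt1, at chr11:60788104-60811718, shares 184 exon bases with Smcr8 on the opposite strand, which held 2434 counts over the 24 libraries against 37550.0 for Shmt1. The libraries do not keep strand, so reads of such overlaps cannot be told apart. Phgdh, at chr3:98313170-98339990, has 13 other annotated genes of at least 95% identity over 200.0 or more bases; they held 1013 counts in all, against 174534 for Phgdh.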

How the data were processed

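RNA of mesenteric lymph node iNKT cells was measured by sequencing in 24 libraries, 8 groups of 3, grouped by the labels. Per the labels' protocols, RNA came from a single-cell RNA purification kit and libraries from Nextera XT, which does not mark strand. Per the submitters' processing notes, kallisto and GRCm38 (mm10) were used, without a stated version. The authors' deposited table holds expected counts (estimated counts from kallisto, per the submitters' processing notes), already whole, with 1 value for each gene in each library. Of 55335 gene identifiers, 55154 matched an annotated gene.

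Genes were kept by filterByExpr (minimum count 10, minimum total 15), which left 15953, all 10 described genes among them. Counts were TMM-scaled and fitted in edgeR 4.0.16 (R 4.3.3) by the quasi-likelihood test with 8 group means over all 24 libraries, sexes or donors weighted equally, two-sided, with Benjamini-Hochberg adjustment over all genes and a threshold of 0.05. Values after ± are approximate SE of the log2 change, its absolute value divided by the square root of the quasi-likelihood F statistic. They may understate the error at few counts, as for Bcat1 and Asns after PBS. Alternatives were DESeq2 1.42.0, other scalings, no filter, a replicate block, 1 profile per group, each sex, groups low in CD8 markers, and each library left out. With 1 profile per group the terms were donor, treatment, their interaction and sex. For the sex comparisons they were donor, treatment, sex and the interaction of treatment with sex. Pairs of libraries in a group differed by more than counting error (chi-square per degree of freedom 4.11 to 16.4), so none was merged. Libraries of the same number in different groups did not deviate together (r -0.055 to 0.091 over 84 pairs), so the numbers were not treated as pairs.

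The 10 genes and all gene lists were chosen with earlier results of these data known. All 10 are named in each comparison. Of each other list, up to 3 genes with an adjusted p under 0.05, at least 5 CPM and the lowest p, and 1 with the highest p, could be named for aGC; like genes were ranked by Pearson r of 8 group means. BLAST 2.17.0 gave similar transcripts, and promoter windows came from RefSeq. Some marker genes are not reported here.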

Additional observations from a re-analysis of the deposited data

Results flagged for a closer look

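The difference in aGC response between donors, KO FT minus WT FT on the log2 scale, passed its test for each of the 10 genes, which were listed with the aGC response known, and these values are listed because the effect of a treatment differed between groups. They were 0.45 for Slc7a5, -0.49 for Slc3a2, -0.31 for Slc1a5, -1.35 for Bcat1, -1.61 for Asns, -0.26 for Phgdh, -0.48 for Psat1, -0.81 for Shmt1, -0.40 for Shmt2 and -0.29 for Mthfd2. Of all genes, 21.9% were called higher and 22.6% lower in this comparison. Within a sex, Bcat1 did not pass in females, and Asns, Shmt2, Mthfd2 and Slc7a5 did not pass in males. None of the 10 genes passed with 1 profile per group.

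The donor effect after PBS differed between males and females for 4 genes, males minus females: Slc3a2 at -0.37, Bcat1 at 3.54, Shmt2 at -0.26 and Mthfd2 at -0.40. After aGC it differed for Asns, at 0.98. The share of all genes that differed in this way was not counted, after PBS or after aGC. PBS males and aGC females hold more CD8 T cell markers, and sex and that content cannot be told apart. Groups of 3 libraries were not screened for single outlying samples; pairs of KO FT aGC male libraries differed most, their counts giving chi-square values of 12.2 to 16.4 for each degree of freedom, against 4.11 to 10.1 for pairs in the other groups.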

How the results depend on the processing

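The aGC minus PBS change of all 10 genes stayed above 0 in each alternative run. With 1 profile per group, the number of genes called was 1618 in place of 10908 (aGC in WT FT), 331 in place of 9273 (aGC in KO FT), 0 in place of 4690 (donor after PBS), 0 in place of 8278 (donor after aGC), 0 in place of 7093 (response difference), 19 in place of 8283 (sex after PBS) and 23 in place of 6517 (sex after aGC), and 0 of the 10 genes passed as higher or lower in the last 5; that fit has 8 profiles. The fit with the replicate number as a block changed 1 call among the 10 genes, Shmt2 after PBS (log2 -0.14, edgeR adjusted p = 0.056), and no count by over 1.5 times.

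In the donor comparison after PBS, 2 of the 10 genes were higher, in place of 1, with DESeq2, in females alone, in males alone and in the groups low in CD8 markers. There the direction turned for Slc3a2 in males (-0.12), Bcat1 in females (-1.21, also the low CD8 groups) and with 1 profile per group (-0.0279), Psat1 in males (0.0045), Shmt1 in females (-0.0229, also the low CD8 groups) and Mthfd2 in females (0.034, also the low CD8 groups). After aGC, Asns was at 0.0567 in males and in the low CD8 groups, and 1 gene, Slc7a5, was higher by library totals. For the response difference, no gene was higher in males alone (0), and Bcat1 turned to 0.31 in females and 0.52 in the low CD8 groups. For sex after PBS, library totals turned Slc3a2 to 0.0241 and Mthfd2 to 0.0241; for sex after aGC, 2 genes were higher with no filter or with DESeq2. The cause was not tested.

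Leaving out 1 library at a time gave 1 to 2 genes higher after PBS in KO FT, 1 to 2 higher and 0 to 2 lower in aGC males, and Mthfd2 between -0.0618 and 0.0163 for sex after PBS. Library totals without TMM moved the median of all genes by -0.15 for aGC in WT FT, 0.13 for donor after aGC and 0.12 for the response difference. The levels of Bcat1 and Asns after PBS are limited by depth.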
